A study of Bos taurus with 38 samples.

Results

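The 100 most abundant genes of the bovine liver were taken as the 100 gene rows with the highest mean CPM over 38 liver RNA-seq libraries, out of 24616 annotated genes. They were selected on their measured level alone, so their high level is a description and not a finding. CPM is the number of read pairs assigned to a gene out of every 1000000 assigned to any gene of that library. The libraries came from liver biopsies of 19 dairy cows, 9 Holstein and 10 Jersey, and each cow gave 1 library on a control diet low in concentrate (C) and 1 on a high concentrate diet (HC). The cows had been sorted by residual feed intake (RFI), the feed eaten beyond what production and body weight predict, and the labels call cows of low RFI high in feed efficiency. High RFI was given for 4 Holsteins and 5 Jerseys and low RFI for 5 of each breed. Among the Holsteins 3 cows were in each of the first, the second and the third parity, and among the Jerseys 4 were in the first, 2 in the second and 4 in the third. The C diet came first in 4 Holsteins and 5 Jerseys and the HC diet first in 5 Holsteins and 5 Jerseys, so that diet and period were crossed within each breed.

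The liver makes most of the proteins of blood plasma, among them albumin, the apolipoproteins that carry lipid, clotting factors and protease inhibitors. It also makes glucose for the lactating udder and breaks down amino acids and foreign compounds. A few secreted proteins therefore take a large part of liver messenger RNA, and the acute phase response, in which hepatocytes turn to the proteins of inflammation, is known to shift their proportions. The deposited files give Ensembl gene identifiers without symbols, and no table used here paired any of the 100 identifiers with a name. The members are therefore described by identifier, rank and behaviour, their known roles are not given, and markers of liver or blood cells could not be read. Ranks compare read pairs and were not corrected for gene length, so a long gene ranks higher than a short one with the same number of transcripts.

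Each library held between 17472750 and 24478289 read pairs assigned to genes, and the lowest count of any member in any library was 139. The cow labels of the libraries of Jersey cows 10 and 17 were in doubt. Of 8 genes that were at 2 CPM or more in some Jersey libraries and below 0.5 CPM in others, both libraries of each of the other 8 Jersey cows were alike at 8, whereas the libraries of cow 10 were alike at 5 and those of cow 17 at 5. The C libraries of cows 10 and 17 were alike at 8 of them, and so were their HC libraries. As every cow was sampled on both diets, this likeness puts the diet labels of cows 10 and 17 in doubt as well. The correlation over all genes tested, each centred on its mean for the breed and diet, was less clear. It was 0.107 between their C libraries and 0.193 between their HC libraries, against 0.0442 between the libraries of cow 10 and 0.212 between those of cow 17. This centring lowers the values between libraries of the same diet but not those between diets. The 2 kinds of pair are therefore not strictly comparable. Tests of breed, parity, Jersey diet, Jersey RFI group and the difference of the diet change between breeds are given with and without these cows. So are the members' share and the counts of spread. Most other results that use them are given with them only. All 100 members passed the filter on low counts in both breeds.

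The members took 53.0% ± 1.34 (SD, n = 38 libraries) of all read pairs assigned to genes, from 50.1% in the C library of Jersey cow 13 to 56.2% in the C library of Jersey cow 3. The next 900 genes took 26.8% ± 0.649. The members' share was 53.0% ± 1.38 (n = 34) when cows 10 and 17 were left out. ENSBTAG00000017121 alone took 10.4% ± 1.37 and was the most abundant gene in 38 of 38 libraries. The first 10 members together took 26.1%, and 11 members held 50 percent of all the members' counts. There were 7 members above 10000 CPM, 14 from 5000 to 10000, 52 from 2000 to 5000 and 27 below 2000 CPM.

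**Figure D1:**
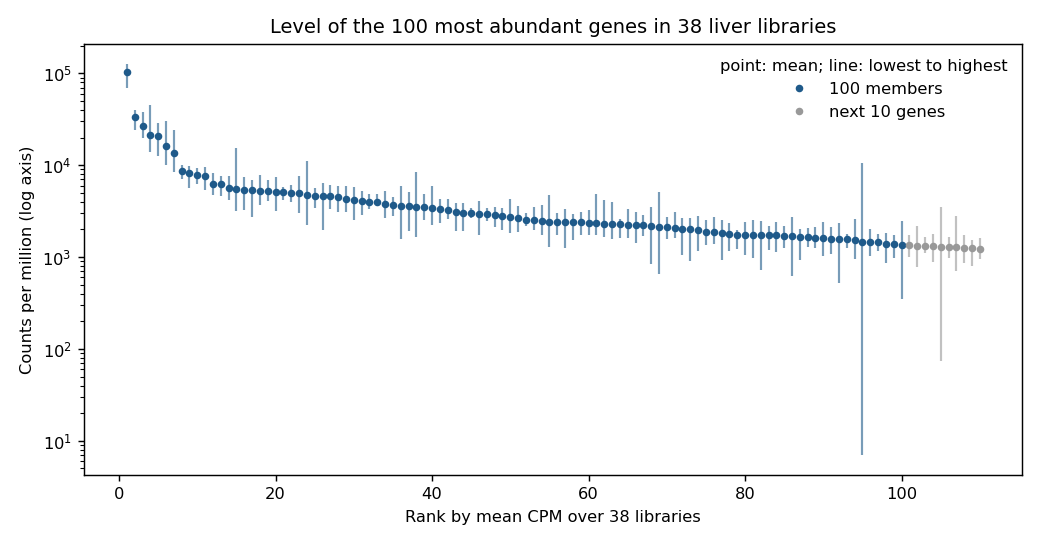
Mean level in CPM on a log axis against rank for the 100 members and the next 10 genes, where points are means of 38 libraries and lines run from the lowest to the highest library. Mean levels ran from 104134 CPM at rank 1 to 13542 CPM at rank 7 and 1354 CPM at rank 100, and the line of ENSBTAG00000006354 at rank 95, from 6.97 to 10628 CPM, was the longest among the members.

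The leading member, ENSBTAG00000017121, ranged from 69856 to 127822 CPM with a mean of 104134. ENSBTAG00000043561 followed at a mean of 33627 CPM, with 23993 in the lowest library and 40336 in the highest. No library of the first member overlapped a library of the second. The ranges of the next members overlapped. ENSBTAG00000017280 had a mean of 26467 ± 4217 CPM (SD, n = 38), ENSBTAG00000022120 of 21457 ± 6414 and ENSBTAG00000007273 of 20650 ± 3250. These 3 held different places in different libraries, between rank 2 and rank 8. ENSBTAG00000006745 (16088 ± 4877 CPM) and ENSBTAG00000001638 (13542 ± 4080 CPM) came next. ENSBTAG00000015676 (8601 ± 576 CPM), ENSBTAG00000020980 (8273 ± 1041 CPM) and ENSBTAG00000043550 (7767 ± 825 CPM) completed the first 10, and their neighbours in this order did not differ beyond the spread between libraries.

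The lower edge of the list was not sharp. The last 3 members, ENSBTAG00000000140, ENSBTAG00000046155 and ENSBTAG00000015505, had means of 1397, 1392 and 1354 CPM. The first 3 genes outside, ENSBTAG00000038323, ENSBTAG00000045492 and ENSBTAG00000020597, had means of 1348, 1328 and 1318 CPM. In single libraries the list changed more, since 67 members were among the 100 most abundant genes of every library while 143 genes were among them in at least 1 library, 43 of which were not members. The C library of Jersey cow 10 held the fewest members among its own 100, with 85, and the highest number was 97. The list made from Holstein libraries alone shared 99 genes with the list used here and that from Jersey libraries alone shared 97, and the lists of the breeds shared 96 with each other.

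The members differed in how much they varied. The ratio of the highest to the lowest library had a median of 1.99 over the members. It reached 2 in 49 members and 3 in 15. The steadiest was ENSBTAG00000034501 at rank 45, which lay between 2638 and 3456 CPM in all 38 libraries, a ratio of 1.31. On the log2 CPM scale, the SD between cow means within a breed had a median of 0.168 over the members, beside 0.174 over the 12103 genes tested. Over the next 900 genes by mean level it was 0.145. With TMM library sizes the order of the members and all genes turned, at 0.176 over the members and 0.169 over all genes. The SD within a cow, between the libraries of its diets, had a median of 0.200 over the members, 0.178 over the next 900 genes and 0.229 over all genes tested. The within-cow value includes any effect of diet and period. It is an SD of single libraries, whereas the value between cows is an SD of means of 2 libraries. The value between cows would therefore be the smaller even if cows did not differ. In 72 of 100 members the spread within cows exceeded that between cow means, against 74% of the next 900 genes and 80.7% of all genes tested. Without cows 10 and 17 this held for 61 members and for 77.6% of genes. With TMM library sizes and all cows the gap was small, at 78 members and 79.5% of genes. The median SD within a cow was then 0.214 over the members and 0.216 over all genes.

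**Figure D2:**
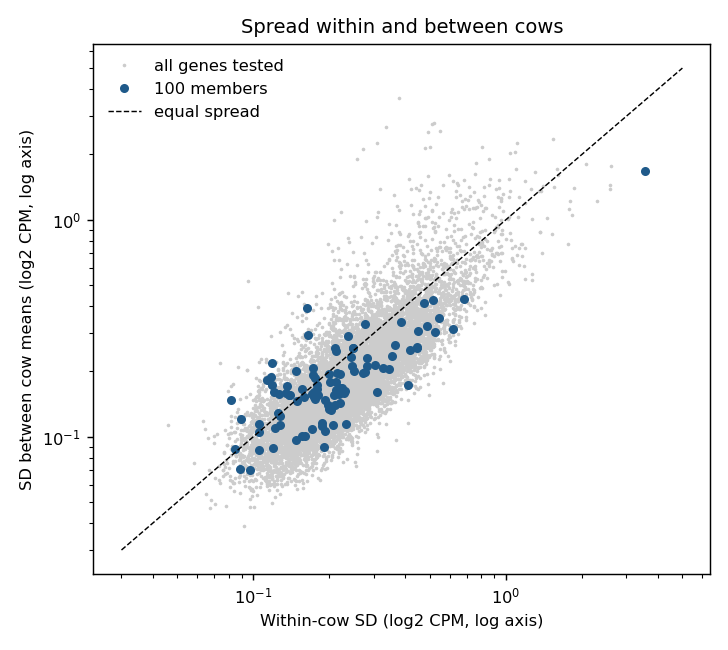
SD between cow means within a breed against SD within cows, both in log2 CPM on log axes, for the 100 members and for all 12103 genes tested, with a dashed line of equal spread. Most members lay inside the cloud of all genes, and ENSBTAG00000006354 stood far to the right at a within-cow SD of 3.56.

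The smallest spread between cows belonged to ENSBTAG00000015676, at an SD of 0.0699, followed by ENSBTAG00000004362 at 0.0708 and ENSBTAG00000016267 at 0.0866. ENSBTAG00000034501 and ENSBTAG00000004003 came next at 0.0881 and 0.0883. At the other end ENSBTAG00000006354 had an SD of 1.68, ENSBTAG00000007850 of 0.433, ENSBTAG00000015505 of 0.425, ENSBTAG00000017294 of 0.412 and ENSBTAG00000030297 of 0.393. Of these, ENSBTAG00000030297 alone varied less within cows than between them, with a within-cow SD of 0.164. The within-cow SD was 0.685 for ENSBTAG00000007850, 0.512 for ENSBTAG00000015505 and 0.474 for ENSBTAG00000017294. After ENSBTAG00000006354 and ENSBTAG00000007850, the next largest within-cow SD was that of ENSBTAG00000026917, at 0.617.

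The likeness of the libraries of a cow was read over all genes and over the members. Each gene was centred on its mean for the breed and diet. Over the 12103 genes tested, 17 of 18 Holstein libraries and 14 of 20 Jersey libraries correlated best with the other library of the same cow. Over the 100 members this held for 8 of 18 and 3 of 20. The mean correlation of a cow's libraries over the members was 0.233 in Holsteins and -0.278 in Jerseys. Between cows it was -0.0748 and -0.0358. The Jersey values include cows 10 and 17, whose labels were in doubt. Sets of 100 other genes were not examined, so the smaller number of genes was not set apart from the choice of members. ENSBTAG00000006354, with a within-cow SD of 3.56 against a median of 0.200 over the members, weighed heavily in the correlations over the members. These correlations were not taken without it. All these counts are descriptions over genes of the same libraries, and the CPM values of a library are tied to each other because they share 1 total.

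The member that varied most was ENSBTAG00000006354. It entered the list at rank 95 through a few very high libraries, with a mean of 1468 CPM against a median of 241 CPM. It was among the 100 most abundant genes in 10 libraries, reached rank 9 in 1 of them and fell to rank 7737 in another. It was at 1000 CPM or more in 11 libraries and below 100 CPM in 13. Its highest level was 7497 CPM and its median 247 CPM without cows 10 and 17.

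The large differences lay between the libraries of the same cow. In 11 of 19 cows these differed by more than 10-fold. Holstein cow 9 had 13 CPM on C and 5671 CPM on HC, and Holstein cow 6 had 18.5 and 3328 CPM. Jersey cow 5 went the other way, from 3533 CPM on C to 29.4 CPM on HC. The library labelled C of Jersey cow 10 had 10628 CPM and the one labelled HC 37.2 CPM. In contrast, Holstein cow 7 was high on both diets, at 3643 and 2607 CPM. The gene was higher on HC in 6 of 9 Holsteins and in 5 of 10 Jerseys. The lowest, median and highest Holstein libraries were 13, 129 and 3643 CPM on C and 45.6, 2607 and 7497 CPM on HC, so the diets overlapped. In Jerseys they were 10.1, 170 and 10628 CPM on C and 6.97, 157 and 3290 CPM on HC. The HC minus C difference was 2.64 (SE 1.23) on the log2 scale in Holsteins, with an edgeR quasi-likelihood adjusted p of 0.391, and -0.34 (SE 1.88) in Jerseys, with an adjusted p of 0.961. The Jersey value of ENSBTAG00000006354 turned to 0.87 (SE 2.23, adjusted p = 0.949) without cows 10 and 17, to 1.95 without cow 10, and to 0.59, 0.54 and 0.57 without cows 4, 5 and 8. It stayed below 0 without any other single cow. With the cow as a block it was 0.37 (SE 2.37, adjusted p = 0.964).

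**Figure D3:**
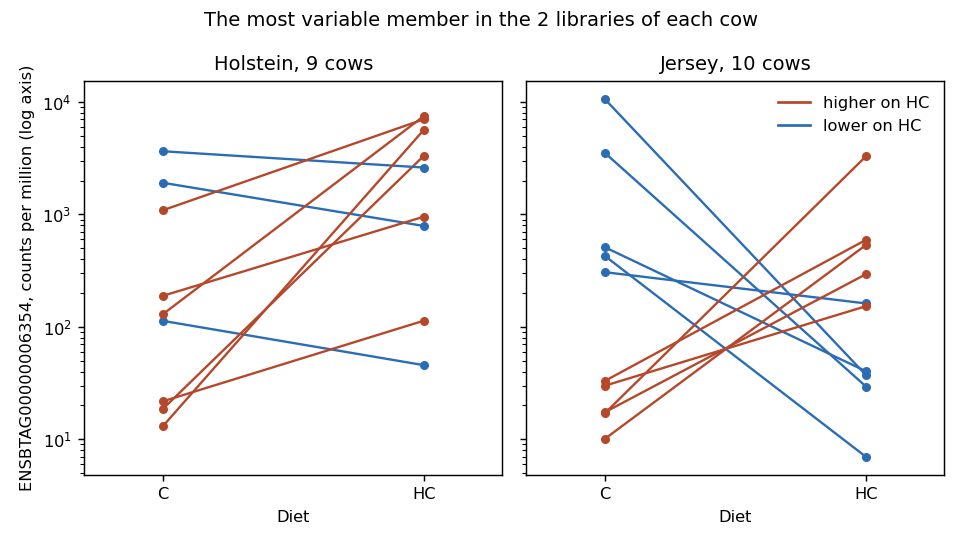
Level of ENSBTAG00000006354 in CPM on a log axis on the C and HC diets, with a line for each of 9 Holstein and 10 Jersey cows, coloured by direction. Lines cross in both breeds, rising in 6 of 9 Holsteins and 5 of 10 Jerseys.

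Other members rose and fell with it from library to library. The members were grouped by average-linkage clustering on 1 minus Spearman's rho of log2 CPM over the 38 libraries, at a distance of 0.5, which gave 8 sets of at least 4 members holding 54 of the 100. The correlations inside a set chose it and are not evidence for it, and 2 libraries came from each cow. The comparisons below used the same libraries, so members of a set tend to share a direction in them. Such a shared direction is not separate evidence. Over all 4950 pairs of members the median rho was 0.0086 and 25 pairs reached 0.8. The largest set held 16 members, from rank 3 to rank 95, among them ENSBTAG00000017280, ENSBTAG00000022120, ENSBTAG00000006745, ENSBTAG00000001638, ENSBTAG00000007850, ENSBTAG00000026917 and ENSBTAG00000006354. The closest pair of all members lay in it, ENSBTAG00000006745 and ENSBTAG00000001638, with a rho of 0.98. ENSBTAG00000022120 followed both, with a rho of 0.96 and 0.95.

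Together these 16 members took 10.9% ± 2.65 (SD, n = 38) of the gene counts, from 7.27% to 19.1%. The range was 7.87% to 15.7% without cows 10 and 17. In the 11 libraries with ENSBTAG00000006354 at 1000 CPM or more the set's mean share was 13.9%, and in the 13 libraries with it below 100 CPM the share was 8.64%. The libraries were split here by a member of the set, so this is a description. The leading gene moved the other way. ENSBTAG00000017121 took 9.06% in the former libraries and 11.4% in the latter, and in 16 of 19 cows it was lower in the library with more ENSBTAG00000006354. ENSBTAG00000022120 was higher in that library in 17 of 19 cows. In a biopsy, fewer cells of a type and less RNA per cell cannot be told apart.

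**Figure D4:**
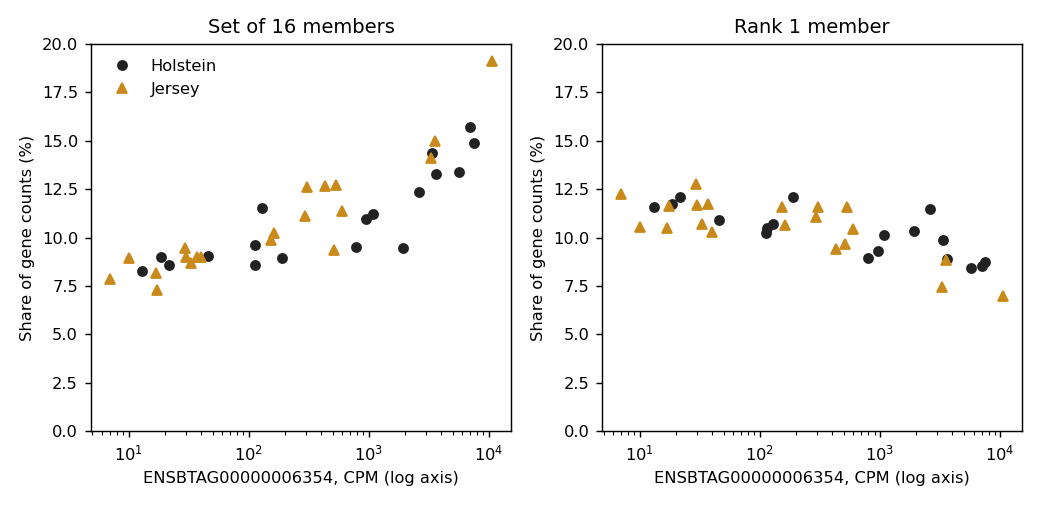
Share of gene counts in percent taken by the set of 16 members (left) and by the rank 1 member (right) against the level of ENSBTAG00000006354 in CPM on a log axis, 1 point for each of 38 libraries, with Holstein as circles and Jersey as triangles. The set's share ran from 7.27% to 19.1% and was largest where ENSBTAG00000006354 was highest, while the share of the rank 1 member was lowest there, at 6.99%.

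The 7 smaller sets differed in level and in spread. A set of 5 around the leading gene took 11.3% ± 1.47 of the counts. A set of 8, from rank 27 to rank 98 and including ENSBTAG00000001936, took 2.22% ± 0.307. A set of 6 around ENSBTAG00000043550 took 3.45% ± 0.396. Another set of 6, which held ENSBTAG00000012794 and ENSBTAG00000018556 (rho 0.88), took 1.26% ± 0.197. A set of 4 led by ENSBTAG00000043561 took 4.53% ± 0.486. The remaining sets of 5 and 4 members took 1.67% ± 0.137 and 1.68% ± 0.229. The other 46 members joined no set of this size.

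The breeds were compared on the summed counts of each cow, with parity and RFI group in the model, by edgeR's quasi-likelihood test adjusted over all 12103 genes tested (Benjamini-Hochberg). At an adjusted p below 0.05, 3 members differed, 2 higher in Jerseys and 1 lower, beside 3.38% of all genes tested. The median difference, Jersey minus Holstein, was -0.01 on the log2 scale over the members and 0.00 over all genes. ENSBTAG00000006991, at rank 85, had cow means of 1403, 1561 and 1694 CPM (lowest, median, highest) in Holsteins and of 1592, 1885 and 2066 CPM in Jerseys. The breeds overlapped, and the difference was 0.27 (SE 0.06, adjusted p = 0.0215). ENSBTAG00000031679, at rank 94, had 1047, 1237 and 1773 CPM in Holsteins and 1352, 1651 and 2425 CPM in Jerseys, a difference of 0.36 (SE 0.10, adjusted p = 0.0465). ENSBTAG00000005586, at rank 68, was lower in Jerseys. Its cow means were 1987, 2492 and 2911 CPM in Holsteins and 1279, 1938 and 2503 CPM in Jerseys, a difference of -0.41 (SE 0.10, adjusted p = 0.0266).

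No member had breeds that did not overlap, beside 0.0826% of all genes tested. Leaving out cows 10 and 17 ended the 3 calls, with 0 members called beside 0.595% of genes. Both cows were Jerseys of low RFI, so an exchange of libraries between them would not change their breed label. Their omission also leaves fewer Jerseys to compare. At an unadjusted p below 0.05 there were then 11 members, beside 1879 of 12103 genes (15.5%). The adjusted p-values were then 0.106 for ENSBTAG00000006991, 0.179 for ENSBTAG00000031679 and 0.0983 for ENSBTAG00000005586, with differences of 0.25, 0.33 and -0.37. Leaving out cow 10 alone also gave 0 called members, beside 1.64% of genes, and leaving out cow 17 alone gave 2, beside 2.12%. Without Holstein cow 2 there was 1, beside 1.59%. DESeq2 called 8 members, beside 6.84%.

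Between cows of the third and cows of the first parity, 2 members differed, both higher in the third parity, beside 0.322% of all genes tested. ENSBTAG00000012794 had cow means of 2463, 2574 and 2897 CPM (lowest, median, highest of 7 cows) in the first parity and of 2855, 3363 and 3760 CPM in the third. The lowest cow of the third parity lay below the highest of the first, and so the groups overlapped. The difference was 0.33 (SE 0.06, adjusted p = 0.0321). ENSBTAG00000018556 had 1710, 1877 and 2012 CPM in the first parity and 2217, 2464 and 2822 CPM in the third, a difference of 0.36 (SE 0.07, adjusted p = 0.0488). It was the single member whose cows of the first and the third parity did not overlap, beside 0.256% of all genes tested. The 5 second-parity cows were between 2691 and 3752 CPM for ENSBTAG00000012794 and between 2037 and 2786 CPM for ENSBTAG00000018556, with medians of 3348 and 2201 CPM.

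Both genes belonged to the set of 6 with a shared course over the libraries, and in all 6 the difference was above 0, with a median of 0.30 over the set against -0.03 over the members. The set was chosen on these libraries, so its 6 directions are not independent. Without cows 10 and 17, ENSBTAG00000012794 kept an adjusted p of 0.0231 and ENSBTAG00000018556 had 0.0628, and 0.248% of genes were called. The count of called members fell to 0 when any of 11 single cows was left out (cows 1, 2, 3, 4, 6, 8, 13, 15, 16, 18 or 19) and to 1 for cows 5, 9, 14 or 17. DESeq2 called 8 members, 4 higher and 4 lower, beside 1.97% of genes.

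In Holsteins, 2 members were lower on the HC diet than on C, beside 0.782% of all genes tested, and no member was called higher. ENSBTAG00000001936, at rank 36, had 3923, 3889, 4122, 1821, 5139, 5113, 4662, 5005 and 4733 CPM on C in cows 1, 2, 6, 7, 9, 11, 15, 16 and 19, and in the same order 1577, 1829, 2737, 2078, 2774, 2287, 2774, 3126 and 2084 CPM on HC. It was lower on HC in 8 of 9 cows, and cow 7 was the exception. Its change was -0.82 (SE 0.18, adjusted p = 0.0401). ENSBTAG00000001265, at rank 86, was lower on HC in the same 8 cows, with 1607, 2245 and 2732 CPM (lowest, median, highest) on C and 913, 1646 and 1912 CPM on HC. Its change was -0.53 (SE 0.11, adjusted p = 0.0401).

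In the paired fit, which adds the cow as a block, 4 Holstein members were called, all lower on HC, beside 2.87% of genes. These included ENSBTAG00000001936 (adjusted p = 0.0115) and ENSBTAG00000001265 (adjusted p = 0.0241). The fit without the block lost both calls when any of 8 cows was left out (1, 2, 6, 9, 11, 15, 16 or 19) and had 3 called members without cow 7, beside 1.12% of genes. Counted by direction alone, 3 members were higher on HC in every Holstein cow, beside 0.835% of genes tested, and 5 were lower in every cow, beside 2.14%. The 3 that were higher were ENSBTAG00000043561, ENSBTAG00000043556 and ENSBTAG00000020747. Of these ENSBTAG00000043561, the second most abundant gene, had means of 32133 CPM on C and 36962 CPM on HC.

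The sets gave different values in Holsteins, where directions inside a set are again not independent. All 16 members of the largest set had changes above 0, with a median of 0.27 on the log2 scale against 0.01 over the members, and none passed the test. All 8 members of the set with ENSBTAG00000001936 had changes below 0, with a median of -0.23, and 1 of them passed. The 5 members around ENSBTAG00000017121 were all below 0, with a median of -0.15 and none past the threshold. ENSBTAG00000017121 itself had a mean of 108617 ± 10934 CPM on C and 96350 ± 11135 CPM on HC (SD, n = 9), and was lower on HC in 7 of 9 cows.

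In Jerseys, 1 member passed the test, ENSBTAG00000020747 at rank 83, which was higher on HC, beside 0.37% of all genes tested. Cows 3, 4, 5, 8, 10, 12, 13, 14, 17 and 18 had 1625, 1620, 1410, 1647, 1186, 1592, 1544, 1681, 1513 and 1497 CPM on C, and in that order 2182, 2143, 1803, 1797, 1696, 1687, 1633, 1880, 1602 and 1892 CPM on HC. All 10 cows were higher on HC, although the diets overlapped between cows. The change was 0.31 (SE 0.06, adjusted p = 0.0376). In Holsteins the same gene was higher on HC in 9 of 9 cows, with means of 1627 ± 124 CPM on C and 1936 ± 171 CPM on HC and a change of 0.28 (SE 0.08, adjusted p = 0.0971). Its difference between the breeds was 0.03 (SE 0.10, adjusted p = 0.945).

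The Jersey call rested on the settings. Blocking on the cow, no member passed, beside 0.596% of genes, and the adjusted p of ENSBTAG00000020747 was 0.0577 at a change of 0.31. Without cows 10 and 17 no member passed, beside 0.0588% of genes, and the adjusted p was 0.204 at a change of 0.31. With both the block and those cows left out it was 0.181, no member passed, and 0.193% of genes were called. Single omissions of cows 3, 4, 5, 8, 10, 12, 17 or 18 each gave 0. DESeq2 called 6 members, all higher on HC, beside 1.65% of genes (110 higher and 86 lower). By direction alone, 2 members were higher on HC in every Jersey cow, ENSBTAG00000005574 and ENSBTAG00000020747, beside 0.264% of genes tested, and 0 were lower in every cow, beside 1.52%. The median change over the members was 0.07, against 0.00 over all genes. The 6 members of the set with ENSBTAG00000012794 were all above 0, with a median of 0.29, and none passed.

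**Figure D5:**
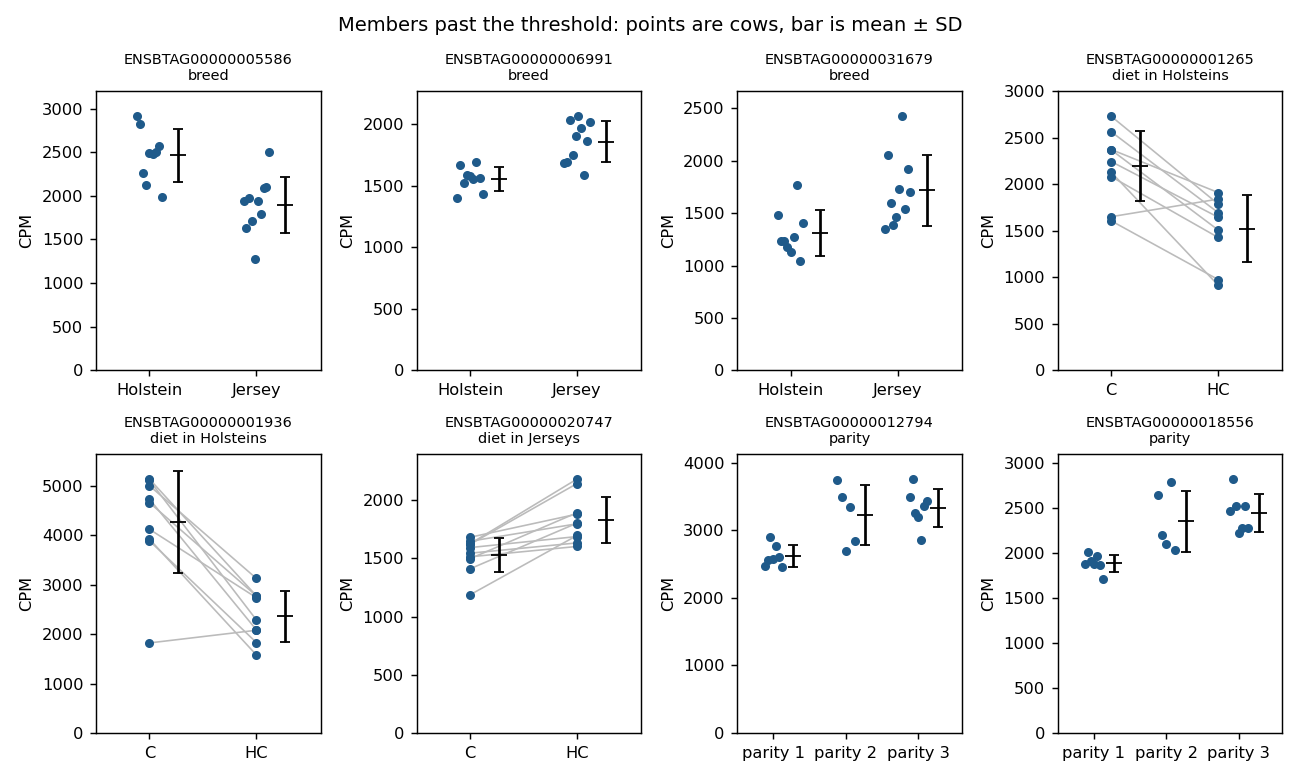
Levels in CPM of the 8 members past the threshold in the comparison named above each panel, where points are cow means for breed and parity and single libraries joined by cow for diet, and bars give mean ± SD. ENSBTAG00000018556 is the member whose cows of the first and the third parity do not overlap, and all 10 lines of ENSBTAG00000020747 rise from C to HC.

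The difference of the diet change between the breeds was tested in 1 model with the cow as a block and period. No member passed the edgeR test, beside 0% of genes, while 17 members and 1031 of 12103 genes had an unadjusted p below 0.05. DESeq2 called 2 genes and 0 members. The median difference, Jersey minus Holstein, was 0.09 over the members and 0.00 over all genes. ENSBTAG00000009725 and ENSBTAG00000047815 were among the 3 members of smallest p, with differences of 0.32 and 0.38 on the log2 scale, each with an adjusted p of 0.530. For ENSBTAG00000009725 the means were 3134 CPM on C and 2763 CPM on HC in Holsteins and 3083 and 3324 CPM in Jerseys. For ENSBTAG00000047815 they were 1915 and 1487 CPM in Holsteins and 1791 and 1742 CPM in Jerseys. Of the 16 members of the largest set, 15 had a difference below 0, with a median of -0.31 and a lowest adjusted p of 0.572. Without cows 10 and 17 no member passed, and 10 members and 722 of 12103 genes had an unadjusted p below 0.05.

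Between the first and the second period no member passed the edgeR test, beside 0% of genes, with 6 members and 639 genes at an unadjusted p below 0.05. DESeq2 called 2 genes and 0 members. The median change from the first to the second period was -0.04 over the members and 0.00 over all genes. ENSBTAG00000030297 had a change of -0.16 and ENSBTAG00000031679 of -0.18, both with an adjusted p of 0.853. ENSBTAG00000017121 in Jerseys had a mean of 113956 ± 8938 CPM in the first period and 97284 ± 15388 CPM in the second (SD, n = 10), and was higher in the second in 2 of 10 cows. In Holsteins it was higher in the second period in 5 of 9 cows, and over both breeds its change was -0.13 (SE 0.08, adjusted p = 0.911).

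No member passed the edgeR test between RFI groups, and DESeq2 called 0 members in either breed. In Holsteins 0.0665% of all genes tested were called, and 5 members had an unadjusted p below 0.05, beside 986 of 12025 genes (8.20%). ENSBTAG00000012398 had the smallest p. Its cow means were 1956, 2090 and 2165 CPM in the 4 high RFI cows and 2306, 2519 and 2608 CPM in the 5 low RFI cows, and the difference was -0.30 (adjusted p = 0.384). These groups did not overlap, which held for 3 members, beside 1.69% of all genes tested. In Jerseys 0.0336% of genes were called and 7 members had an unadjusted p below 0.05, beside 703 of 11905 genes (5.91%). ENSBTAG00000043568, one of the 3 members of smallest p, had 2151, 2985 and 4535 CPM in high RFI and 3643, 3852 and 4431 CPM in low RFI cows, a difference of -0.37 (adjusted p = 0.775). Without cows 10 and 17, 0 members were called in Jerseys and 1 had an unadjusted p below 0.05, beside 6.41% of genes. All these RFI fits took the libraries of a cow as separate samples, although RFI group belongs to the cow. With the counts of a cow summed, 2 members and 555 of 12025 genes (4.62%) had an unadjusted p below 0.05 in Holsteins. In Jerseys 5 members and 461 of 11905 genes (3.87%) did.

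The share taken by the list as a whole was higher on HC in 6 of 9 Holsteins, by 0.757 ± 1.60 percentage points (mean and SD of the cow differences), and in 7 of 10 Jerseys, by 1.19 ± 2.16 points. Both means were smaller than the SD between cows. In the second period it was higher in 3 of 9 Holsteins and 4 of 10 Jerseys.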

How the data were processed

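RNA of liver biopsies was sequenced as stranded messenger RNA libraries, all pooled in 1 run. Per the study's methods, the authors trimmed reads with cutadapt, aligned them with STAR 2.3.0 to UMD 3.1 and counted read pairs per Ensembl gene with HTSeq (version and strand setting not given in the sources used here). The deposited values are raw counts per gene and library. Rows of unassigned read pairs were left out of totals and tests, and 76.2% of counted pairs were assigned to genes.

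Groups came from the labels, and period from the diet order in the study's methods. The members and the lists were chosen with earlier results of these data known. CPM used the summed gene rows. Tests used edgeR 4.0.16 (R 4.3.3) with TMM factors (0.888 to 1.07), the quasi-likelihood test and an adjusted p threshold of 0.05, on genes at 1 CPM or more in at least 8 Holstein or 10 Jersey libraries. Diet and RFI group were fitted within breed with parity and without a block of the cow. Breed and parity were fitted on the counts of a cow summed. Period and the breed difference of the diet change were fitted with the cow as a block. Log2 CPM for spreads and correlations used a prior count of 2. The models were also run on simulated counts, drawn independently for each library with no effect of the cow. Those runs cannot show false calls that arise where a fit ignores the pairing of a cow's libraries. limma 3.58.1 and DESeq2 1.42.0 served as alternatives. The 2 libraries of a cow come from the same animal, which pairs them. With all genes tested, each centred on its mean for the breed and diet, their mean correlation was 0.442 in Holsteins and 0.303 in Jerseys. Between cows it was -0.0885 and -0.0707, and the centring itself pushes these values below 0. The Jersey values include cows 10 and 17.

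Named genes were the first 10 by mean, the extremes of spread, those at the edge of the list, and those of smallest p in each comparison. As the files do not pair identifiers with names, at most 2 that rose and 2 that fell were named per comparison from the test. Genes named by their course over the libraries or by direction in every cow were chosen after their values were seen. Sequences, gene lengths and pathway lists could not be matched to the identifiers and were not used. Alternatives were DESeq2, RLE size factors, no filter, other blocks, cows left out in turn, and the list made from other libraries or from medians.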

Additional observations from a re-analysis of the deposited data

Results flagged for a closer look

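For 12 measures (the share of the members, the share of the 16-member set, the first and the most variable member, and the 8 members past a threshold) each of the 8 groups of 4 or 5 libraries of a breed, RFI group and diet was searched for a library far from the rest. Of the 96 groups, 1 held such a library, while chance alone gives about 1 in 20. ENSBTAG00000005586, the member called lower in Jerseys, was at 1172 CPM in the C library of the high RFI Jersey cow 4, against 1970 to 2385 CPM in the other 4 libraries of that group. The gap took up 0.731 of the group's range.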

How the results depend on the processing

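Counts of called members were low and moved with the settings, and in most cases the cause was not tested. For breed, 3 members became 8 with DESeq2, 7 with limma-voom and cows as a random block, 7 with 38 libraries and no block, 0 without cows 10 and 17, and 0 to 5 leaving out 1 cow (5 without cow 11 or 14). For parity, 2 became 8 with DESeq2, 4 with the random block, 8 with 38 libraries and no block, 1 with RLE factors, 1 without a filter, 1 without cows 10 and 17, and 0 to 2 leaving out 1 cow. For diet in Holsteins, 2 became 5 with DESeq2, 4 with the paired block of the cow, and 0 to 3 leaving out 1 cow. The block with period gave 3. For diet in Jerseys, 1 became 6 with DESeq2, 0 without a filter, 0 with the block, 0 without cows 10 and 17, 0 with both, and 0 to 1 leaving out 1 cow, and the block with period gave 1. Genes called over all genes also moved: for diet in Holsteins 94 became 343 with DESeq2 and 345 with the block, for diet in Jerseys 44 became 196 and 71, for breed 409 became 828 with DESeq2 and 72 without cows 10 and 17, for parity 39 became 238 with DESeq2. Both RFI comparisons, period and the difference of the diet change between breeds gave 0 members under every alternative run. Of 110 values under an alternative for genes that were called or had the smallest p, 99 kept direction and side of the threshold, 11 lost significance and 0 changed sign. Only called genes could lose significance, and the 110 values also cover genes that were not called. The fits leaving out 1 cow, which ended many calls, were not among the 110. Outside these 110 values, the Jersey diet change of ENSBTAG00000006354, not called, turned from -0.34 to 0.87 without cows 10 and 17. With all counted read pairs as the total the members' share was 40.4%. The list shared 97 to 100 genes with every alternative list. Levels per kilobase were not run, since no gene lengths were matched. The combination of the block with cows 10 and 17 left out, and the share without them, were chosen after seeing the data.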
